A study of Mus musculus with 8 samples.

Results

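*Ankrd1* and 8 other genes of stretch-responsive sarcomere proteins were followed in RNA from the left ventricles (LVs) of 8 mice. The members were taken by symbol from the table of counts per gene, which gave 10 of its 46040 rows for 9 genes, because *Ankrd23* has 2 rows. All mice received angiotensin II (angII, 0.1 mg/kg/h) from subcutaneous minipumps, and LVs were collected on day 14 of infusion. The mice were male, of the strain labelled C57BL/6, and 5 to 7 months old. The control group (n = 4) consisted of littermates, and the other group (n = 4) of VEGFR-1 TK-/- mice, in which the allele of *Flt1* lacks the part for the intracellular tyrosine kinase domain in every cell. No untreated LVs were analysed here, so every value is a level under pressure overload, and only mice alive on day 14 could be sampled. The labels name left ventricular tissue as the source, whereas the library names contain the word cardiomyo, and this mismatch could not be settled here. For each library, the genotype tag and the library name give one genotype and the title gives the other. Below, control and TK-/- stand for the genotype given by tag and library name, and if the titles are correct every difference has the opposite sign.

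The proteins of this group sit where the contractile apparatus of a cardiomyocyte is anchored, and some of them are thought to sense how far it is pulled. *Ankrd1*, *Ankrd2* and *Ankrd23* encode the muscle ankyrin repeat proteins, which bind the I-band spring of titin and can also enter the nucleus. *Fhl1*, *Fhl2* and *Csrp3* encode proteins made of LIM domains that link titin, the Z-disc and signaling enzymes. *Xirp1* and *Xirp2* encode the actin-binding Xin repeat proteins of the intercalated disc and of sites of myofibril repair, and *Synpo2l* encodes a Z-disc protein of the synaptopodin family. *Ankrd1* is known as one of the transcripts that rise soon after a heart is loaded.

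The set was built around *Ankrd1* and was selected on the measured counts of these same libraries, with the log2 fold changes between the 2 groups in view. The differences between the groups are therefore a description and support nothing, and where calls among the 9 genes are counted, the share of all genes called stands beside them and nothing is read from the count. All 9 genes with reads passed the filter of a CPM (counts of the gene per 1000000 counts of the library) of at least 1 in at least 2 libraries, and the second *Ankrd23* row had no read in any library, which allows at most 0.185 to 0.262 CPM per library (3 counts of the total, counting error only). *Ankrd2* passed only through control libraries, so that a difference was built into its passing.

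Between 11449137 and 16239670 counts fell on genes in each library. *Flt1* itself had 56.9 to 84.3 normalized CPM (CPM with the library size scaled by its TMM factor) in the control libraries and 144 to 169.6 in the TK-/- libraries, and a count over the whole gene cannot show whether the kinase part is missing. Cardiomyocyte genes dominated, with a summed 80344 to 120330 normalized CPM of 10 markers in the control and 102000.0 to 125910 in the TK-/- libraries. Of 10 skeletal muscle markers, 6 (*Myh1*, *Myh2*, *Myh4*, *Actn3*, *Tnni1* and *Myf6*) were below 1 normalized CPM in every library. So were 3 of 8 atrial markers, among them *Sln* and *Bmp10*, whereas the atrial markers *Myl4*, *Dkk3* and *Stard10* were above 1 normalized CPM in every library. In bulk RNA, fewer cells of a type and less RNA per cell cannot be told apart.

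*Ankrd1* (ENSMUSG00000024803, minus strand of chromosome 19 of GRCm38, 36111961 to 36120099) encodes the cardiac ankyrin repeat protein. It had 3183, 4262, 3622 and 4355 normalized CPM in the control replicates 1 to 4. In the TK-/- replicates 1 to 4 it had 2982, 1656, 1858 and 2214 normalized CPM. Replicate 1 of the latter group lay close to replicate 1 of the former, and the other libraries were well apart. The control mean was 1.77 times the TK-/- mean, a log2 fold change of −0.82 (SE 0.19). Only 0.783% of the 13542 genes tested had a lower log2 fold change. The spread differed between the groups, with a coefficient of variation of 14.4% in the control and 26.8% in the TK-/- libraries.

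In the 250 bases before the RefSeq start of *Ankrd1*, the M-CAT motif CATTCC, to which TEAD factors bind, was found at 2 places and the GATA motif AGATAA at 1 place, counting both strands. At least 2 M-CAT motifs were found in 1.02% and at least 1 GATA motif in 9.99% of 32841 RefSeq promoters of the mouse (GRCm38.p6, the same 250 bases). All of these bases lie in exons of GENCODE M21, whose *Ankrd1* gene model starts further upstream. The motifs are therefore shown here with short flanks to give their context. Each is read 5′ to 3′ on the strand of the gene, with the motif, here in its reverse complement, in capitals.
Ankrd1 M-CAT, chr19:36120037-36120066: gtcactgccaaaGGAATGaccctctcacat
Ankrd1 M-CAT, chr19:36119950-36119979: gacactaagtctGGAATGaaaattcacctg
Ankrd1 GATA, chr19:36119874-36119903: caggctggaagaTTATCTcacccagcccta
These matches describe the letters only. Other members had an M-CAT motif in 1 entry, of *Ankrd23*, among 13 promoter entries for 8 of the 9 genes. The GATA motif was also found in an entry of *Ankrd23* and in an entry of *Fhl2*.

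*Ankrd2* (ENSMUSG00000025172, plus strand of chromosome 19, 42036000 to 42045110) encodes the muscle ankyrin repeat protein typical of slow skeletal muscle. It was barely transcribed in these LVs, with 12, 23, 17 and 12 reads in the control and 5, 3, 4 and 7 reads in the TK-/- replicates 1 to 4. On the normalized scale these were 0.898, 1.67, 1.14 and 0.96 CPM against 0.406, 0.266, 0.316 and 0.558 CPM. The groups did not overlap, and the log2 fold change of −1.57 (SE 0.37) was the 13th lowest of all genes tested. Both were partly built in, since the gene passed the filter only through control libraries. With so few reads, counting error is a large part of each value. In alternatives without control replicate 2 or 3 the gene no longer passed the filter.

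*Ankrd23* (ENSMUSG00000067653, minus strand of chromosome 1, 36530188 to 36536883) encodes the third protein of the family, which also binds titin. Its levels were 182, 124, 344 and 141 normalized CPM in the control and 101, 102, 146 and 150.3 in the TK-/- replicates 1 to 4. Control replicate 3 was far above all other libraries, and the remaining libraries of both groups overlapped. The log2 fold change of −0.66 (SE 0.28) became −0.26 without this library. In GENCODE M21 the gene model *Gm42417* shares 2109 exon bases with *Ankrd23* on the same strand, but it was not among the genes counted here. The second *Ankrd23* row is not in GENCODE M21. Whether it overlaps the first row, and so affected its reads, is not known here, so the level is uncertain.

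**Figure D1:**
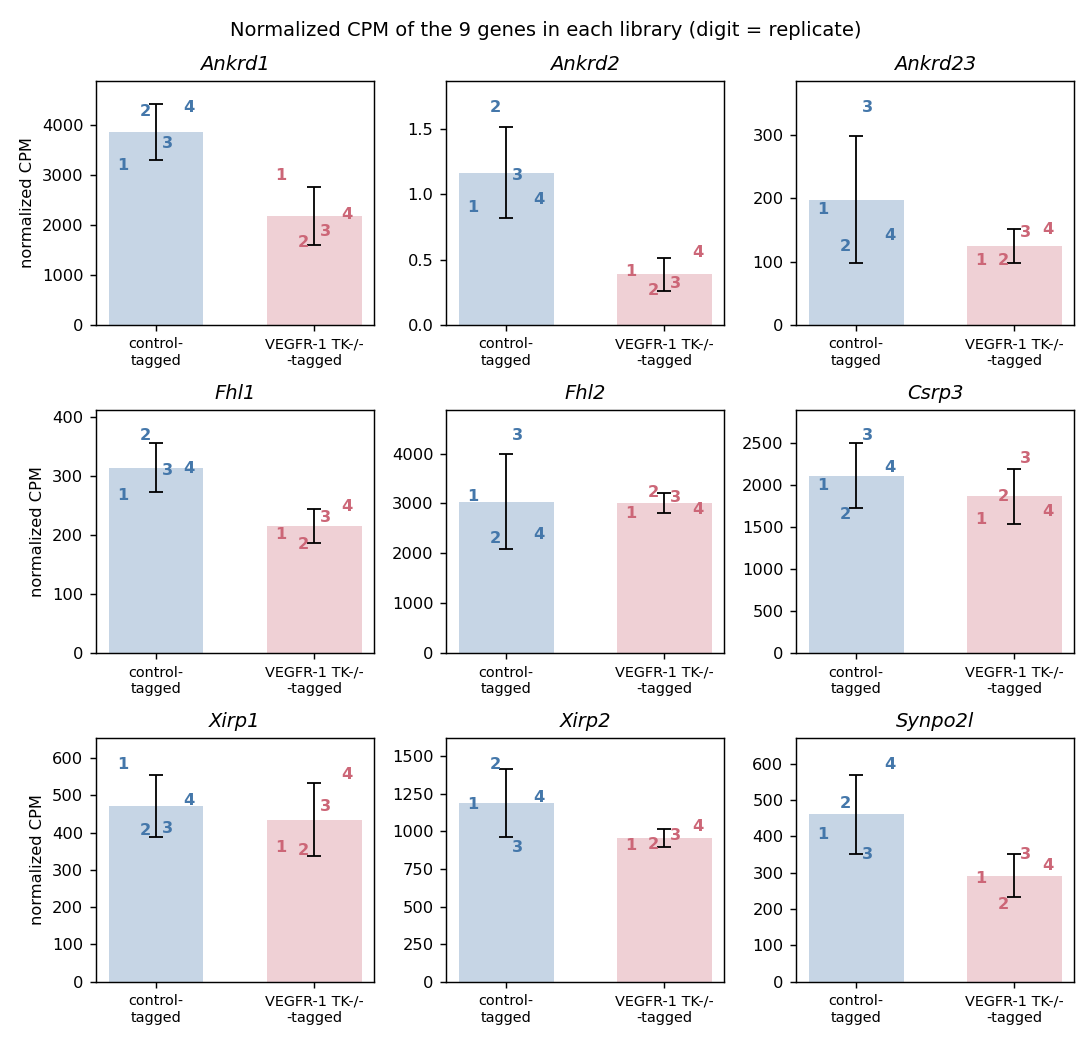
Normalized CPM (vertical axes, linear from 0) of each gene in the 4 control (blue) and 4 TK-/- (red) libraries. Digits mark the replicates, bars the group means and black lines ± SD. The groups of *Ankrd1*, *Ankrd2* and *Fhl1* do not overlap, and control replicate 3 is highest for *Ankrd23* (344), *Fhl2* (4358) and *Csrp3* (2583).

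*Fhl1* (ENSMUSG00000023092, plus strand of the X chromosome, 56731787 to 56793346) encodes a protein that binds titin and MAP kinases and is needed for hypertrophy under load. Its levels were 267, 368, 308 and 312 normalized CPM in the control and 200.3, 184, 229 and 248 in the TK-/- replicates 1 to 4. The lowest control library, at 267, still exceeded the highest TK-/- library, at 248. The means were 314 ± 41.3 and 215 ± 28.7 (SD, n = 4 per group), which gave a log2 fold change of −0.54 (SE 0.13). Of the 9 genes this one had the smallest standard error, and its coefficient of variation was 13.2% in the control and 13.3% in the TK-/- libraries.

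*Fhl2* (ENSMUSG00000008136, minus strand of chromosome 1, 43123074 to 43196984) encodes a protein that anchors metabolic enzymes to titin and restrains calcineurin. Control replicates 1 to 4 had 3133, 2292, 4358 and 2369 normalized CPM. TK-/- replicates 1 to 4 had 2792, 3223, 3112 and 2882 normalized CPM. All TK-/- libraries lay inside the control range, and the means were 3038 ± 959 and 3002 ± 199.6 (SD, n = 4 per group). The log2 fold change of −0.02 (SE 0.20) turned to 0.21 without control replicate 3. The control coefficient of variation was 31.6% and the other 6.65%.

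*Csrp3* (ENSMUSG00000030470, minus strand of chromosome 7, 48830398 to 48848033) encodes muscle LIM protein, a Z-disc protein whose loss causes dilated cardiomyopathy in mice. Its levels were 1995, 1651, 2583 and 2209 normalized CPM in the control and 1588, 1859, 2312 and 1684 in the TK-/- replicates 1 to 4. The groups overlapped widely, and the log2 fold change was −0.18 (SE 0.17).

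Of the promoters of *Fhl1*, *Fhl2* and *Csrp3*, those of *Fhl1* and *Fhl2* held the CArG box, the site of serum response factor (named here without letters, both strands), which was found in 1.47% of all promoters. *Fhl2* held it before each of its 2 annotated starts, and its upstream start also held the site of the MEF2 factors (in 2.92% of all promoters). The GATA motif (in 9.99% of all promoters) was found before the upstream start as well. Of the 250 bases before the upstream *Fhl2* start, 223 lie in exons of GENCODE M21, its CArG, GATA and MEF2 motifs among them. For the *Fhl1* entry with the CArG box it is 87 bases, and for the other *Fhl2* start 0. The CArG and MEF2 motifs are printed because these genes had the lowest and the highest log2 fold change of the LIM genes. Each printed motif is in capitals.
Fhl1 CArG, chrX:56779571-56779600: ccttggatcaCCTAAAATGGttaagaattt
Fhl2 CArG, chr1:43163973-43164002: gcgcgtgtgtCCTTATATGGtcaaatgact
Fhl2 CArG, upstream start, chr1:43196838-43196867: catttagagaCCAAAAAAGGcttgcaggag
Fhl2 MEF2, upstream start, chr1:43196773-43196802: tggacatgccTTATTTATAActctgctgac
The *Fhl1* entry printed here held the CArG box, and the other *Fhl1* entry did not. Any link of these motifs to the differences between the groups was not tested.

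*Xirp1* (ENSMUSG00000079243, minus strand of chromosome 9, 120013755 to 120023598) had 584, 405, 412 and 488 normalized CPM in the control replicates 1 to 4. The TK-/- replicates 1 to 4 had 361, 352, 469.8 and 557 normalized CPM. The groups overlapped, with a log2 fold change of −0.12 (SE 0.17) that came to −0.0035 without control replicate 1.

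*Xirp2* (ENSMUSG00000027022, plus strand of chromosome 2, 67446002 to 67526614), a target of MEF2 factors that angII is known to induce, had levels of 1180.5, 1447, 896 and 1222 normalized CPM in the control replicates 1 to 4. In the TK-/- replicates 1 to 4 it had 903, 913, 971 and 1033 normalized CPM. Control replicate 3 was the lowest library of all and brought the groups to overlap. The log2 fold change was −0.31 (SE 0.14) over all libraries and −0.43 without this replicate. An antisense gene shares 168 exon bases with *Xirp2* and had at most 3 reads in any library.

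*Synpo2l* (ENSMUSG00000039376, minus strand of chromosome 14, 20658946 to 20668354) had 404, 492, 349 and 599 normalized CPM in the control and 284, 213, 351 and 321 in the TK-/- replicates 1 to 4. Only replicate 3 of each group overlapped, 349 against 351 normalized CPM. The log2 fold change was −0.66 (SE 0.19), and without control replicate 3 it was −0.77.

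*Xirp2* and *Synpo2l*, like *Fhl2*, held a MEF2 site in front of a start. *Xirp1*, the other member outside the ankyrin and LIM families, had no promoter entry and was not searched. The 250 upstream bases of *Xirp2* and *Synpo2l*, of which none lie in exons of GENCODE M21, are printed with the MEF2 site in capitals.
Xirp2, chr2:67445752-67446001: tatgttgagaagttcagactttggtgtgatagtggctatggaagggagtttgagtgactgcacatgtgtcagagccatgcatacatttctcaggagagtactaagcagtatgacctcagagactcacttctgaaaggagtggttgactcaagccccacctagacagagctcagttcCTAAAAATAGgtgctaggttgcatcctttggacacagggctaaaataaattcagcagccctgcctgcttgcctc
Synpo2l, upstream start, chr14:20668355-20668604: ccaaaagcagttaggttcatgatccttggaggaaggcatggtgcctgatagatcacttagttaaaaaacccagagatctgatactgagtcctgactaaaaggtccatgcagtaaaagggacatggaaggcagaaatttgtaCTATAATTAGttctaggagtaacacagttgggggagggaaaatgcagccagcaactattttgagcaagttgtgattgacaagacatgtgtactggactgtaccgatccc
*Synpo2l* held a further MEF2 site before its other start. The AP-1 motif TGANTCA (in 6.75% of all promoters) was found in *Xirp2* alone among the promoters of members that were searched.

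Taking the 9 genes as a group, all had a log2 fold change below 0, where 50.3% of all genes tested did. The median was −0.54 for the 9 genes and −0.0012 for all genes tested. The groups did not overlap in 3 of the 9 genes (*Ankrd1*, *Ankrd2* and *Fhl1*, lower in the TK-/- libraries). Of all genes tested, 4.98% did not overlap, 2.53% being lower and 2.46% higher in the TK-/- libraries. *Synpo2l* missed this by 1 library, and *Ankrd1* was separated by the gap from 2982 to 3183 normalized CPM. A level at least 1.5-fold lower in the TK-/- group was fitted for *Ankrd1*, *Ankrd2*, *Ankrd23* and *Synpo2l*, 4 of the 9 genes, and for 2.4% of all genes. These counts include *Ankrd2*, which passed the filter only through control libraries.

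No member was called by edgeR's quasi-likelihood test (FDR under 0.1 and a difference of at least 1.5-fold), and 0.00738% of all genes tested, 1 gene, were. At an unadjusted p under 0.05, 5 of the 9 genes and 8.96% of all genes stood in the same test. The likelihood ratio test of edgeR called 2 of the 9 genes, *Ankrd1* and *Ankrd2*, both lower, and 0.303% of all genes as lower. For *Ankrd2*, which passed the filter only through control libraries, a difference in this direction was built in. *Fhl1* was under the FDR threshold in that test, as were 0.554% of all genes, and missed the fold threshold. DESeq2 called *Ankrd1* and gave no FDR for *Ankrd2*. It called 32 of all 13542 genes tested, 26 of them as lower.

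**Figure D2:**
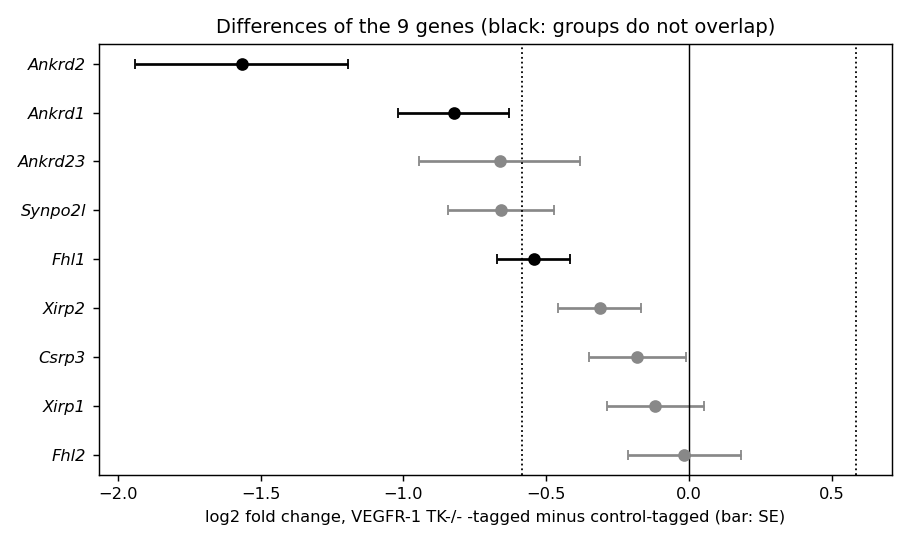
Log2 fold change (horizontal axis) of each gene, TK-/- minus control, with its SE from the quasi-likelihood fit over 8 libraries. Dotted lines mark the threshold of 1.5-fold, and black points are genes whose groups do not overlap. The values run from −1.57 for *Ankrd2* to −0.02 for *Fhl2*.

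Markers of fibroblasts, leukocytes, endothelial cells and red blood cells mostly had log2 fold changes below 0, while the medians of atrial and smooth muscle markers were near 0. Neither edgeR test called any marker. Log2 fold changes were below 0 for 8 of 8 fibroblast markers (median −0.30), 9 of 10 leukocyte markers (median −0.30), 7 of 8 endothelial markers (median −0.23), 5 of 5 red blood cell markers (median −0.37), 2 of 5 tested atrial markers (median 0.016) and 4 of 7 smooth muscle markers (median −0.019). For cardiomyocyte markers it was 3 of 10, with a median of 0.18. The summed fibroblast level was 1670 to 2758 normalized CPM in the control and 794 to 2208 in the TK-/- libraries. The summed leukocyte level was 483 to 620 and 340.1 to 508 normalized CPM in the same order, and the summed endothelial level 2174 to 2675 and 2052 to 2363. Skeletal muscle markers summed to 13.3 to 19.7 and 16.7 to 24.6 normalized CPM. Measured against the sum of the cardiomyocyte markers in the same library, which shifts every gene by the same amount, the difference of mean log2 values was −0.96 for *Ankrd1*, −0.65 for *Fhl1*, −0.76 for *Synpo2l* and −0.075 for *Fhl2*, against −0.85, −0.54, −0.65 and 0.031 without this scaling. *Ankrd1*, *Ankrd2* and *Fhl1* again had no overlap of the groups. The part of the other cell types in these differences was not tested.

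The levels of the 9 genes relative to each other were not used to assemble the set, and they were compared within libraries in FPKM, the normalized CPM per kilobase of merged exons. *Fhl2* was the most abundant per length with 1592 ± 338 FPKM (SD, n = 8 libraries), followed by *Ankrd1* with 1045 ± 360.4 and *Csrp3* with 743 ± 134. A second tier held *Xirp2* with 89.4 ± 16.4, *Synpo2l* with 81.4 ± 26.3, *Xirp1* with 77.7 ± 14.8, *Fhl1* with 71.2 ± 16.7 and *Ankrd23* with 59.9 ± 29.1 FPKM. *Ankrd2* stood last with 0.683 ± 0.425 FPKM. The 3 ankyrin repeat genes thus stood in the first tier, in the second tier and at the bottom of the set.

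Neighbours in this order were compared by an exact sign-flip permutation test over the 8 libraries (2-sided, smallest possible p = 0.0078), adjusted over 8 pairs by Benjamini-Hochberg. The order and the tiers were taken from these same libraries of both groups, so the p-values describe the gaps and are no independent test of the order. Both steps, from the first tier to the second and from there to *Ankrd2*, were larger than the spread between libraries. *Csrp3* exceeded *Xirp2* by 3.06 ± 0.397 on the log2 FPKM scale (SD, n = 8, higher in 8 of 8 libraries, exact p = 0.0078, adjusted 0.0312). *Ankrd23* exceeded *Ankrd2* by 6.60 ± 0.836 (SD, n = 8, higher in 8 of 8 libraries, exact p = 0.0078, adjusted 0.0312). For no other pair of neighbours was the adjusted p of this permutation test under 0.05. *Fhl2* was above *Ankrd1* in 6 of 8 libraries by 0.66 ± 0.681 log2 FPKM (SD, n = 8, exact p = 0.0391, adjusted 0.104). The order of this pair was not uniform, since the mean log2 difference was 0.22 in the control and 1.10 in the TK-/- libraries. *Ankrd1* was above *Csrp3* by 0.43 ± 0.572 (SD, n = 8, exact p = 0.0781, adjusted 0.156), and this pair passed when the length of the longest transcript was used, with a log2 difference of 0.81 (exact permutation test, adjusted 0.0417). Its mean log2 difference was 0.77 in the control and 0.094 in the TK-/- libraries. *Synpo2l* and *Xirp1* differed by 0.025 ± 0.413 log2 FPKM (SD, n = 8, exact p = 0.844, adjusted 0.844), with *Synpo2l* higher in 3 of 8 libraries. Their mean log2 difference was 0.29 in the control and −0.24 in the TK-/- libraries, so the order of these genes differed in sign between the group means.

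**Figure D3:**
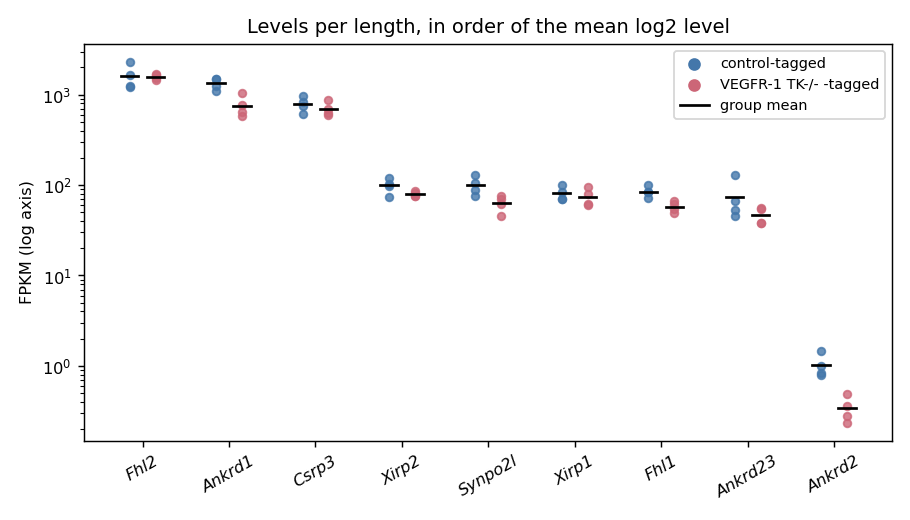
FPKM (vertical log axis) of the 9 genes in the order of their mean log2 level, one point per library, with control libraries in blue, TK-/- libraries in red and group means as black lines. *Fhl2*, *Ankrd1* and *Csrp3* lie between 574 and 2298 FPKM, 5 genes between 37.6 and 129 FPKM, and *Ankrd2* below 1.47 FPKM.

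The 9 genes did not vary as a block between libraries of one group. After the group means were subtracted from log2 normalized CPM, Pearson's r was above 0 in 19 of 36 pairs of members, with a median of 0.07 over the 8 libraries. *Ankrd23*, *Fhl2* and *Csrp3* deviated together, with r = 0.87 for *Ankrd23* and *Fhl2*, 0.69 for *Ankrd23* and *Csrp3*, and 0.66 for *Fhl2* and *Csrp3*. A further cluster was formed by *Fhl1*, *Synpo2l* and *Xirp2*, with r = 0.62 for *Xirp2* and *Synpo2l*, 0.62 for *Fhl1* and *Synpo2l*, and 0.51 for *Fhl1* and *Xirp2*. *Ankrd2*, with its few reads, had r = 0.82 with *Fhl1*, the second highest of all pairs, and 0.54 with *Ankrd1*. *Fhl2* and *Xirp2* deviated in opposite directions (r = −0.88).

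Control replicates 2 and 3 carried much of this pattern. In replicate 3, *Ankrd23* was 0.92, *Fhl2* 0.57 and *Csrp3* 0.31 above the group mean of log2 CPM, and *Xirp2* was 0.38 and *Synpo2l* 0.37 below it. In replicate 2 the deviations had the opposite sign for each of these genes, −0.55 for *Ankrd23*, −0.36 for *Fhl2*, −0.33 for *Csrp3*, 0.31 for *Xirp2* and 0.12 for *Synpo2l*. Without replicate 3, r was 0.51 for *Ankrd23* and *Fhl2*, 0.39 for *Fhl2* and *Csrp3*, −0.56 for *Fhl2* and *Xirp2*, and 0.37 for *Xirp2* and *Synpo2l*, while it was 0.97 for *Ankrd23* and *Xirp1*, 0.92 for *Fhl1* and *Xirp2*, 0.86 for *Ankrd2* and *Xirp2* and 0.82 for *Ankrd2* and *Fhl1* (7 libraries). These 2 libraries were also the extremes of the control group in the summed cardiomyocyte markers, 80344 normalized CPM in replicate 2 and 120330 in replicate 3, and in the TMM factor, 1.117 and 0.9165. Over all libraries with group means subtracted, the log2 sum of these markers had r = 0.91 with *Csrp3*, 0.73 with *Fhl2*, 0.69 with *Ankrd23*, −0.77 with *Xirp2* and −0.43 with *Ankrd1*. With the log2 TMM factor the values were −0.94, −0.83, −0.77, 0.81 and 0.53. The libraries share depth and composition, and the part of the library scaling in this pattern was not tested.

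**Figure D4:**
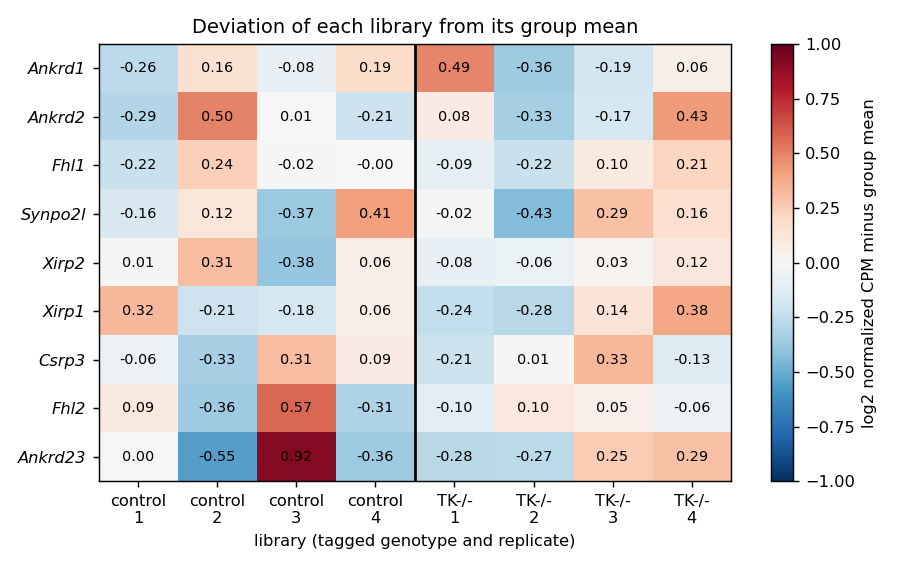
Deviation of log2 normalized CPM from the group mean (colour and printed value) for each gene (rows) and library (columns, control at left, TK-/- at right). Control replicate 3 is 0.92 above its group mean for *Ankrd23* and 0.38 below it for *Xirp2*.

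The genes most like *Ankrd1* were sought among 8879 genes with a mean of at least 10 normalized CPM, by Pearson's r over the 8 libraries. As measured, the highest values were 0.97 for *Fam129b*, 0.97 for *Myo1d*, which encodes an unconventional myosin, 0.96 for *Gnaq*, which encodes the alpha subunit of Gq, the G protein of the angII type 1 receptor, 0.95 for *Ano6*, a phospholipid scramblase, and 0.95 for *Cacnb3*, a calcium channel subunit. Each of these had a log2 fold change below 0, from −0.68 for *Cacnb3* to −0.20 for *Gnaq*. With group means subtracted, the genes were *Ier2*, an immediate early gene (r = 0.98), *Btd* (r = 0.98), *Gucy1a3*, a subunit of soluble guanylate cyclase (r = 0.97), *Dtx3* (r = 0.97) and *Naglu* (r = 0.97). Their log2 fold changes lay between −0.21 for *Ier2* and 0.053 for *Naglu*. Among so many genes and only 8 libraries such values are a description, and by Spearman's rho 1 of the first 5 and 2 of the second 5 genes stayed in their list. Within the set, *Synpo2l* (r = 0.80 as measured and 0.45 with group means subtracted) and *Fhl1* (0.83 and 0.36) were nearest to *Ankrd1* among the genes that reached this level, and *Fhl2* was farthest (−0.31 and −0.50).

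Paralogs of the members were measured beside them. *Fhl3*, a LIM gene prominent in skeletal muscle, had 13.5 ± 2.57 in the control and 9.02 ± 1.19 normalized CPM in the TK-/- libraries (SD, n = 4 per group) without overlap of the groups. The log2 fold change was −0.58 (SE 0.16), with FDR = 0.442 in the quasi-likelihood test of edgeR. *Csrp1* did not overlap either, with 105 ± 5.92 and 87.4 ± 10.5 normalized CPM (SD, n = 4 per group) and a log2 fold change of −0.27 (SE 0.10, quasi-likelihood FDR = 0.506). *Csrp2* (log2 fold change −0.12), *Synpo* (0.089) and *Synpo2* (0.059) overlapped. *Fhl4* stayed below the filter, and *Fhl5* had no read in any library. Of the 5 paralogs tested, 0 were called by the quasi-likelihood test, the likelihood ratio test or DESeq2. An unadjusted quasi-likelihood p under 0.05 was found for 2 of them, against 8.96% of all genes. The groups did not overlap in 4.98% of all genes tested.

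The structural partners of these proteins in the Z-disc and I-band had differences on both sides of 0. Of 30 genes listed, 29 were tested, 14 with a log2 fold change below 0 and 15 above, with a median of 0.0045. The quasi-likelihood test, the likelihood ratio test and DESeq2 called 0 of them. An unadjusted quasi-likelihood p under 0.05 was found for 2 of them, against 8.96% of all genes. The largest differences were those of *Flnc*, encoding the Z-disc actin cross-linker filamin C, with −0.38 (SE 0.15, FDR = 0.506), and of *Tcap*, encoding telethonin, which caps titin at the Z-disc, with 0.26 (SE 0.21, FDR = 0.732, both from edgeR's quasi-likelihood test).

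Other genes known to answer to stretch or pressure load mostly had log2 fold changes below 0. Of 36 listed, 34 were tested, and 28 had a log2 fold change below 0 (50.3% of all genes did), with a median of −0.21. The quasi-likelihood test called 0 of them, and 6 had an unadjusted p under 0.05 in it, against 8.96% of all genes. The likelihood ratio test and DESeq2 each called 2 as lower, *Acta1* and *Ctgf*. Of all genes tested, the likelihood ratio test called 0.303% as lower, and DESeq2 called 26 of 13542 as lower. The list also holds matrix genes that fibroblasts express, *Postn* (−0.49, SE 0.46), *Tnc* (−0.44, SE 0.40), *Timp1* (−0.43, SE 0.40) and *Lox* (−0.34, SE 0.35), of which *Postn* is also among the 8 fibroblast markers (median −0.30), and the part of fibroblasts in these values was not tested. *Ctgf*, encoding the matricellular protein CCN2 and, like *Ankrd1*, a target of YAP and TEAD, had 349.7 ± 91 normalized CPM in the control and 181 ± 64.2 in the TK-/- libraries (SD, n = 4 per group) with overlap of the groups. The log2 fold change came to −0.95 (SE 0.25) with FDR = 0.442 by edgeR's quasi-likelihood test and 0.0587 by the likelihood ratio test. *Acta1*, encoding skeletal muscle alpha-actin, stood at −1.51 on the log2 scale (SE 0.22), where the quasi-likelihood test of edgeR gave FDR = 0.152 and its likelihood ratio test 2.85e-08. Smaller values in the same list were those of *Cyr61*, another YAP and TEAD target (−0.027, SE 0.13), *Myh7* (0.13, SE 0.48) and *Nppb*, encoding the natriuretic peptide BNP (−0.42, SE 0.27). *Spp1*, encoding osteopontin, had −1.29 (SE 0.64, FDR = 0.592 from the quasi-likelihood test) at mean levels of 3.31 and 1.35 normalized CPM, with 1 control library at 8.57.

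Transcription factors and cofactors known to act on promoters of the set showed small differences, apart from *Ppargc1a*. All 25 listed were tested, 13 with a log2 fold change below 0 and 12 above, with a median of −0.015. By all 3 tests, 0 were called, and 2 had an unadjusted quasi-likelihood p under 0.05, against 8.96% of all genes. *Tead1*, whose product binds the M-CAT motif, had 0.025 (SE 0.12), *Yap1* −0.015 (SE 0.10), *Srf* −0.15 (SE 0.13) and *Mef2a* 0.12 (SE 0.096). The largest values were 0.55 (SE 0.15, FDR = 0.442) for *Ppargc1a*, a coactivator of mitochondrial genes, and −0.25 (SE 0.10, FDR = 0.522, both from edgeR's quasi-likelihood test) for *Nfkb1*. The groups did not overlap for either gene, nor for 4.98% of all genes tested.

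**Figure D5:**
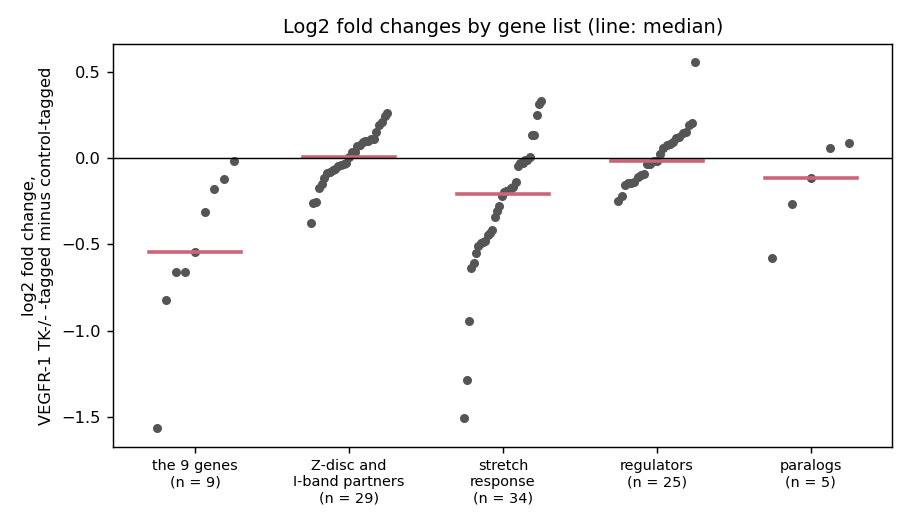
Log2 fold change (vertical axis, TK-/- minus control) of the tested genes of each list, one point per gene in ascending order, with the median as a line. The medians are −0.54 for the 9 genes, 0.0045 for the partners, −0.21 for stretch response genes, −0.015 for regulators and −0.12 for paralogs.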

How the data were processed

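RNA of LVs was sequenced from 8 mice. The authors trimmed reads with Trim Galore 0.4.4, aligned them to GRCm38 with STAR 2.5.4b and counted them on GENCODE M16 with featureCounts. They deposited whole-number counts per gene without normalization. Whether strand or reads with several alignments were counted is not given in the sources used here. The methods describe poly-A selection and the labels depletion of ribosomal RNA.

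The 13542 genes that reached 1 CPM in 2 or more libraries were normalized with TMM factors and tested with the quasi-likelihood test of edgeR 4.0.16 in R 4.3.3, without covariates, called at an FDR (Benjamini-Hochberg over all genes tested) under 0.1 and a difference of at least 1.5-fold. SE is the absolute log2 fold change divided by the square root of F. Log2 CPM used a prior count of 2. The likelihood ratio test of the methods, DESeq2 1.42.0, RLE factors, total counts, other filters, a threshold on FDR alone, a replicate block and each library left out were alternatives. The test was tried on simulated counts. Lengths came from GENCODE M21, and promoters and their build from RefSeq, with entries for 8 of 9 genes and none for *Xirp1*. Python 3.11.15 was used for levels, motifs and figures.

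The members, gene lists and tests were chosen with earlier results of these data known. Named genes were the members, *Flt1*, paralogs, list genes called by either edgeR test, the 2 largest differences of each list and the 5 genes most like *Ankrd1* by each measure. *Cyr61*, *Myh7*, *Nppb*, *Tead1*, *Yap1*, *Srf* and *Mef2a* were added after their values were seen, as were *Postn*, *Tnc*, *Timp1* and *Lox*. Nothing in the labels says whether libraries of a group came from separate extractions, and their spread may be partly technical. A result for 1 marker gene is not reported here.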

Additional observations from a re-analysis of the deposited data

Results flagged for a closer look

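Among 68 groups of 4 libraries examined for the genes named, 2 held a library far from the other 3, both for *Spp1* (osteopontin). Chance marks about 1 in 20 such groups. In the control group, replicate 2 had 8.57 normalized CPM, and the other libraries had 0.96 to 2.10. In the TK-/- group, replicate 1 had 2.60 normalized CPM, and the others had 0.869 to 1.07. None of the 9 genes of the set was marked.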

How the results depend on the processing

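Over 16 alternative settings, the 142 log2 fold changes of the 9 genes moved from their reported values by less than 1 SD of log2 CPM between libraries, and 138 were below 0. The 4 above 0 belonged to *Fhl2*, at most 0.21. Leaving out 1 of 4 libraries can hardly move a group mean by 1 SD, so staying within this bound is no sign of robustness. Within it, *Ankrd23* still went from −0.66 to −0.26 without control replicate 3. *Ankrd1* ranged from −1.01 to −0.72 and *Fhl1* from −0.65 to −0.46. The scaling to cardiomyocyte markers and the pairs without control replicate 3 were chosen after seeing the data.

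Over all genes, 53 were called by the likelihood ratio test, 23 with no filter on low counts and 32 by DESeq2, against 1, and leaving out 1 library gave 1 to 3 (2 without control replicate 1, 3 without control replicate 2 or 4). Of the 9 genes, the likelihood ratio test called 2, DESeq2 1 and the fit without the filter 1, against 0. Of the stretch response genes, these 3 settings each called 2 (*Acta1* and *Ctgf*), and leaving out 1 library gave 0 to 1, *Acta1* without control replicate 2 or 4. The steps of the level order that passed numbered 2, and 0 to 3 with 1 library left out (3 without control replicate 3, 0 without any other), where the smallest exact permutation p is 0.0156 and 2 such values among 8 cannot pass. By Spearman's rho, 2 of 5 genes most like *Ankrd1* with group means subtracted, and 1 of 5 as measured, were shared with Pearson's r.

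The replicate numbers did not pair the libraries: the correlation of deviations of same-numbered libraries was −0.029, 0.029, 0.343 and −0.055. With the replicate number as a block, 1 gene was called over all, 0 of the 9 genes were called, and the log2 fold change of *Ankrd1* was −0.85. Depth limits *Ankrd2* (3 to 23 reads).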
